A study of Mus musculus with 7 samples.

Results

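Accessible chromatin was described around 10 genes of the interleukin-7 (IL-7) receptor pathway: Il7r, Il2rg, Jak1, Jak3, Stat5a, Stat5b, Socs1, Socs2, Socs3 and Cish. The members were every peak of the 7 deposited lists that overlapped one of these gene bodies or the 20 kb on either side of it on mm10 (GRCm38) with GENCODE M21 genes. There were 766 such peaks of 647973 in all, and merging peaks of any library that overlapped by at least 1 bp gave 137 elements of 145247. The study profiled sorted bone marrow B-cell progenitors by ATAC-seq, which sequences DNA fragments cut from open chromatin, and asked what changes when the transcription factor Erg is lost. Each of the 7 groups was 1 library from adult mice. The WT cells, sorted as pre-proB, proB and preB in order of maturation, carried Ergfl/fl alleles and no Cre. Erg KO pre-proB cells were Rag1CreT/+;Ergdelta/delta, with deletion driven by Rag1Cre in lymphoid progenitors. Rescue pre-proB, proB and preB cells had this genotype and the IgHVH10tar allele, a heavy chain gene that is already productively rearranged, so the comparison of Rescue with WT differs by Erg, Cre and the heavy chain at once. The source names of the 3 Rescue libraries give another stage than their titles, and the titles were followed here.

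IL-7 is a growth and survival factor made by bone marrow stroma, and mouse B-cell progenitors depend on it. Its receptor pairs the IL-7 receptor alpha chain with the common gamma chain. Ligand binding brings together the kinases JAK1 and JAK3, which phosphorylate STAT5A and STAT5B, and STAT5 in turn switches on genes that include its own inhibitors, the SOCS proteins and CIS.

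The level of a peak is given as its summit pileup, the number of reads stacked at its highest point, over the genome-wide background pileup of its library. Background pileups lay between 3.49 and 4.6 reads, and the lowest called pileup was 10 to 12 reads, a level of 2.61 to 3.09, so no peak means only that a region did not reach about that level. Read totals were not used here. At the 20 kb limit, 5 elements lay within the last 1000 bp inside a window, with levels of 5.29 to 71.6, and 4 lay within 1000 bp outside, with 4.75 to 107. With 1 library per group no spread between animals could be estimated and no test was run. Differences in level carry a 95% interval for counting error only, and are given after centring on the median ratio over all elements with a peak in both libraries. That median was 0.13 (log2) for Rescue against WT pre-proB, 0.11 for WT preB against WT proB and within 0.1 for the other pairs. The member windows held 107 to 118 peaks in the pre-proB libraries, 110 and 114 in WT and Rescue proB, and 97 and 105 in WT and Rescue preB, between 0.104% and 0.127% of each list. The sorted identities were checked against promoters of 5 markers of committed B cells (Cd79a, Cd79b, Pax5, Vpreb1 and Pou2af1), all of which had a peak in each of the 4 proB and preB libraries, with summed levels of 289 to 400. In WT pre-proB all 5 had a peak too, with a summed level of 47.6, whereas at the same stage Erg KO had 1 (7.85) and Rescue 2 (13.5). Among promoters of 6 T-cell, 6 NK and innate lymphoid, 6 plasmacytoid dendritic and 6 myeloid markers, the pre-proB libraries had 2 to 4, 5, 6 and 4 to 5 peaks and the later libraries 0 to 2, 2 to 4, 5 and 3 to 4, while Cd3e, Cd3d, Ncr1 and Elane had none anywhere. All 6 markers of early progenitors (Flt3, Kit, Cd34, Meis1, Hoxa9 and Mecom) had a promoter peak in every library but WT preB, which had 5.

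Sequences were taken from the GRCm38 genome for elements on which the results below turn. STAT dimers bind a palindrome, written here as TTCNNNGAA, which reads the same on both strands, and every match is in capitals. The first set are 300-bp stretches around the summits of distal elements that were at their highest in proB and preB cells. They are shown as examples of elements whose levels separated the stages or the pre-proB libraries. Others that did so are not shown. Among these, elements 74.6 kb from the Stat5b start, 72.8 kb inside Jak1 and 38.0 kb from the Il7r start held no match. An element 10.7 kb from the Socs1 start held 1. Of all member elements 16.8% held a match.
Il7r, 19.1 kb upstream, chr15:9549079-9549378, plus strand: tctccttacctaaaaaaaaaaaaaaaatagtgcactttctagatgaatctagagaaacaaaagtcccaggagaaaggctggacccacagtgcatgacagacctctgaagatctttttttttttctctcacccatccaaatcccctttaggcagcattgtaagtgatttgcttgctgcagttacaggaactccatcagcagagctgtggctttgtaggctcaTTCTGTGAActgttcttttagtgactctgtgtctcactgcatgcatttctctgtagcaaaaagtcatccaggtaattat
Jak1, 15.1 kb upstream, chr4:101280198-101280497, plus strand: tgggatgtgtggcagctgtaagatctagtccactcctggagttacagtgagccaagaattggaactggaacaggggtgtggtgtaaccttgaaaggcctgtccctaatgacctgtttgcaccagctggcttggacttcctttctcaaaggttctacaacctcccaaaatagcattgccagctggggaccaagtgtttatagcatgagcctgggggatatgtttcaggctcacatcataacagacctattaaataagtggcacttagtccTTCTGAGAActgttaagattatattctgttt
Socs3, 4.2 kb downstream of its start, chr11:117965676-117965975, plus strand: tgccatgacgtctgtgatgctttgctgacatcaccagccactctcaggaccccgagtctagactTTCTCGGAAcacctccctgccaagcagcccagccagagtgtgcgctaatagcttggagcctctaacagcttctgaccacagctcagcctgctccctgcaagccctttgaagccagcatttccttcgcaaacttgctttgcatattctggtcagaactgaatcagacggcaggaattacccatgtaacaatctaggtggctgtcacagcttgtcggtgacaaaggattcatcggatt
Socs2, 27.9 kb downstream of its start and without a match, chr10:95389155-95389454, plus strand: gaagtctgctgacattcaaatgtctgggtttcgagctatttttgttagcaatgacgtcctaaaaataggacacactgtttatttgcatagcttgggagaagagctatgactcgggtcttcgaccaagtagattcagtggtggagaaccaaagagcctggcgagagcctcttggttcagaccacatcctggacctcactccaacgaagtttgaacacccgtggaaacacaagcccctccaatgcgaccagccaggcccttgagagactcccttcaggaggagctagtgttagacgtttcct
The second set come from promoters of genes that STAT5 is known to induce. They are shown for their closely spaced pairs of matches, and the Cish pieces are limited to the matches because they overlap annotated untranslated exons. The Socs2 stretch lies just inside the annotated gene, whose start at chr10:95417180 is the one from which all Socs2 distances are given.
Socs2, the 300 bp before its outermost coding transcript start, chr10:95416858-95417157, plus strand: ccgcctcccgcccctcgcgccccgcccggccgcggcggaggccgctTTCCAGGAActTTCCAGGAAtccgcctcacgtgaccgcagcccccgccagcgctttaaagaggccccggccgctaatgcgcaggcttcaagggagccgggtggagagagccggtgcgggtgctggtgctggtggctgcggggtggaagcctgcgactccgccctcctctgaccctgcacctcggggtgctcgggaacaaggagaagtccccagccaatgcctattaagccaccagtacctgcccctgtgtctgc
Cish, first pair, chr9:107296659-107296678, plus strand: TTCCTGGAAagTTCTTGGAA
Cish, second pair, chr9:107296764-107296789, plus strand: TTCTAGGAAgatgaggcTTCCGGGAA
The last stretch is an intergenic element beyond the 3′ end of Cish that was at its highest in pre-proB cells.
Cish, 17 kb downstream of its start, chr9:107312900-107313199, plus strand: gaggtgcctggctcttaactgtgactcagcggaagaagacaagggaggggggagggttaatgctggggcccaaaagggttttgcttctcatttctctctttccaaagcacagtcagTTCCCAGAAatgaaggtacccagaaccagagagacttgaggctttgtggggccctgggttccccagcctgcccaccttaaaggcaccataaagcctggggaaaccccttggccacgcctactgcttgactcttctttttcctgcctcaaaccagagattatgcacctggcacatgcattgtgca

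Promoters of all 10 members were accessible in all 7 libraries, where 61.4% to 65.5% of 21938 coding genes had a promoter peak within 1000 bp of an annotated start. From WT pre-proB to WT proB only Socs2 among the members passed 2-fold at its promoter (2.44-fold higher, centred on the median of all promoters), which 6.82% of 13478 promoters did upwards and 3.84% downwards. Between Erg KO and WT pre-proB none of the 10 did, where 0.196% and 0.138% of 13766 promoters did upwards and downwards, and their centred log2 differences ran from -0.37 at Il2rg to 0.36 at Il7r.

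**Figure D1:**
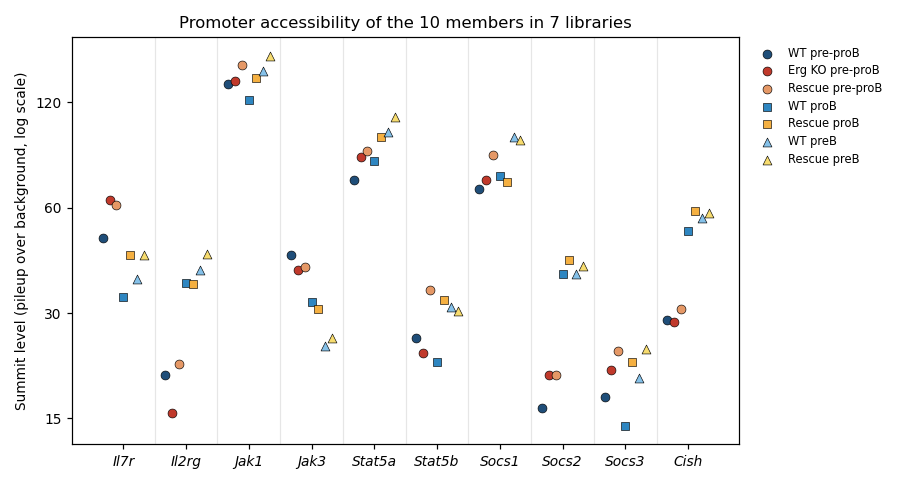
Highest promoter peak of each member, as summit pileup over background on a log scale, with 1 point per library; circles are pre-proB, squares proB and triangles preB. At Il2rg, Socs2 and Cish all 4 proB and preB points lie above the 3 pre-proB points (from 36.4, 38.7 and 51.6 upwards against at most 21.5, 20 and 30.9), and at Il7r and Jak3 they lie below them.

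The promoters of the receptor chains differed between stages in opposite directions. Il7r encodes the alpha chain, which is specific for IL-7 and for thymic stromal lymphopoietin. Its promoter element (chr15:9529471-9530480, summit in an intron just inside the gene) had levels of 49.3 in WT, 63.3 in Erg KO and 60.9 in Rescue pre-proB, 33.3 in WT and 43.8 in Rescue proB, and 37.6 in WT and 43.9 in Rescue preB. The pre-proB levels were thus all above the later ones, and the element was 1.39-fold lower in WT proB than in WT pre-proB (1.12 to 1.74). The Erg KO level was 1.25-fold that of WT (1.04 to 1.5). An adjoining intronic element 1.9 kb inside the gene followed, at 28.9 to 33.2 in pre-proB and 15.2 to 21.3 in later libraries, 2.06-fold lower in WT proB (1.53 to 2.8).

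Around the gene the order was reversed. An intergenic element 19.1 kb upstream of Il7r (chr15:9548862-9549528) had no peak in any pre-proB library and stood at 34 in WT proB, 28.7 in Rescue proB, 24.4 in WT preB and 34.6 in Rescue preB. It was the highest of the 20 member elements with a peak in WT proB and none in WT pre-proB. Weaker elements 9.8 kb upstream (6.24 to 8.6) and 43.0 kb downstream of the start (6.3 to 12.9) shared this pattern. The highest distal element of the later libraries, 38.0 kb downstream of the start and beyond the 3′ end (chr15:9491178-9493188), was already open in pre-proB, at 17.6 in WT, 15.9 in Erg KO and 16.5 in Rescue, and stood at 47.6 to 53.3 in the 4 later libraries. WT proB exceeded WT pre-proB there 3.22-fold (2.47 to 4.25), whereas Erg KO and WT pre-proB differed 1.13-fold with an interval that spanned equality (0.806 to 1.59). The element 3.5 kb upstream of the promoter varied between 8.6 and 12.2 over all 7 libraries without an order by stage or genotype.

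**Figure D2:**
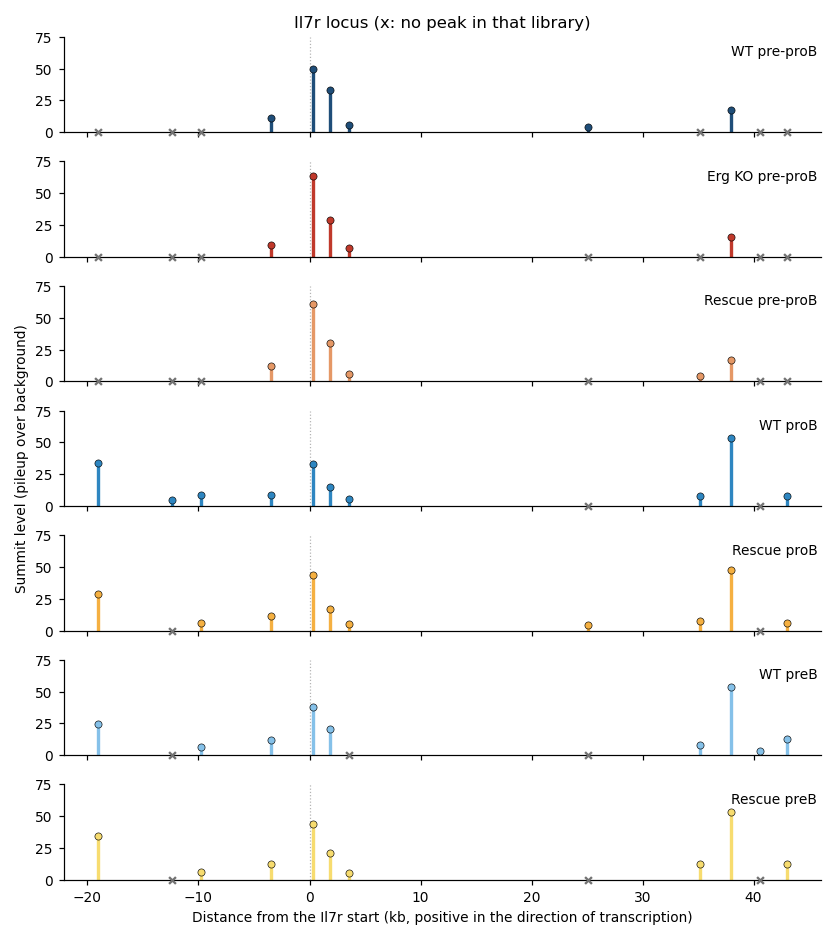
Summit level of each merged element of the Il7r window against the distance of its summit from the Il7r start in kb, 1 panel per library; crosses mark elements without a peak there. Elements 19.1 and 9.8 kb upstream and 43.0 kb downstream of the start are missing from the 3 pre-proB panels and present in the 4 others, and the one 38.0 kb downstream is taller in the 4 later panels.

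Il2rg encodes the common gamma chain, which other receptors such as those for IL-2 and IL-4 also use. At its promoter (chrX:101267626-101269067, where the coding gene Gm20489 overlaps it) the level was 20 in WT, 15.5 in Erg KO and 21.5 in Rescue pre-proB. It was 36.5 and 36.4 in WT and Rescue proB and 39.9 and 44.2 in WT and Rescue preB. The later libraries were all higher, and WT proB exceeded WT pre-proB 1.94-fold (1.48 to 2.56). Erg KO was 1.33-fold below WT pre-proB, with an interval of 0.952 to 1.85 that spanned equality. An element 7.7 kb downstream of the start, in a UTR of the neighbouring Foxo4, went the other way: 13 to 14.9 in pre-proB, 4.75 and 6.3 in proB and no peak in either preB library.

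At the kinase genes, elements inside and upstream of Jak1 differed between stages while its promoter did so by less than 2-fold. JAK1 binds the alpha chain. The Jak1 promoter (chr4:101264225-101266086) had levels between 122 and 163 in all libraries. Of the 28 elements in its window with a peak in WT pre-proB or WT proB, 4 had it in proB only and 5 in pre-proB only, where 23.5% and 26.3% of all elements did. Of the 19 in both, 5 were at least 2-fold higher and 3 at least 2-fold lower in WT proB, where 15.3% of all shared elements were in each direction. An intronic element 77.7 kb from the start (chr4:101187099-101188243) stepped down with stage, from 67.6, 66.2 and 72.5 in WT, Erg KO and Rescue pre-proB, to 36.7 in WT and 14.6 in Rescue proB, 4.21 in WT preB and no peak in Rescue preB. WT preB was 9.43-fold below WT proB there (5.55 to 17.2), the largest difference downwards of any shared member element in that comparison, and Rescue proB was 2.65-fold below WT proB (1.92 to 3.7). The neighbouring element at 82.4 kb (chr4:101182265-101183435) stood at 96.4 to 111 in pre-proB and 44.1 to 56.9 later. Upstream of the gene, the element at 11.7 kb had no pre-proB peak and levels of 14.5 to 24.2 in the 4 later libraries.

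JAK3 binds the common gamma chain. The Jak3 promoter (chr8:71675867-71677095) stood at 43.8, 39.7 and 40.7 in WT, Erg KO and Rescue pre-proB, 32.2 and 30.9 in WT and Rescue proB and 24.1 and 25.5 in WT and Rescue preB, so its level was lower at each later stage in both genotypes. The highest element of the window in pre-proB cells, 10.8 kb upstream in an intron of Unc13a (chr8:71664956-71666477), was at 58.6 to 77.9 in pre-proB and 18.8 to 23.5 later, 2.92-fold lower in WT proB than in WT pre-proB (2.28 to 3.76). All 11 Jak3 elements of the WT stages were present in both WT pre-proB and WT proB.

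Stat5a and Stat5b are neighbours, transcribed away from each other, and their windows share 9 elements. They encode the closely related factors that carry the IL-7 signal to the nucleus. Promoter levels were 72.1 to 109 at Stat5a (chr11:100859918-100861295) and 21.7 to 34.8 at Stat5b (chr11:100849860-100851608), and at Stat5a they were higher at each later stage in both WT (72.1, 81.3 and 98.5) and Rescue (87, 95.4 and 109). Stat5b had no such order. The Stat5a steps in WT were 1.2-fold from pre-proB to proB (1.02 to 1.4) and 1.12-fold from proB to preB (0.964 to 1.3). The second of these intervals spanned equality. Erg KO and WT pre-proB differed by 1.13-fold or less at both promoters, with intervals that spanned equality.

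Beyond the 3′ end of Stat5a, in the 3′ part of the neighbouring gene Stat3, lay a run of elements that all 3 pre-proB libraries had and WT proB did not. The first (chr11:100888183-100889338, in a UTR of Stat3) stood at 62.5 in WT, 62.4 in Erg KO and 80.3 in Rescue pre-proB, and had no peak in WT proB or in either preB library. Rescue proB had it, at 16.6. The same held for elements 32.5, 38.3 and 45.8 kb from the Stat5a start, all in introns of Stat3, with Rescue proB levels of 6.02, 19.2 and 8.6 against 18.3 to 26.8, 38.7 to 46.6 and 5.29 to 12.2 in pre-proB. An element between them at 34.3 kb, on a coding exon of Stat3, was open at 11.8 to 17.7 in every library. The window cannot assign these elements to Stat5a rather than Stat3, whose own promoter, outside the window, had levels of 91.1 to 132.

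**Figure D3:**
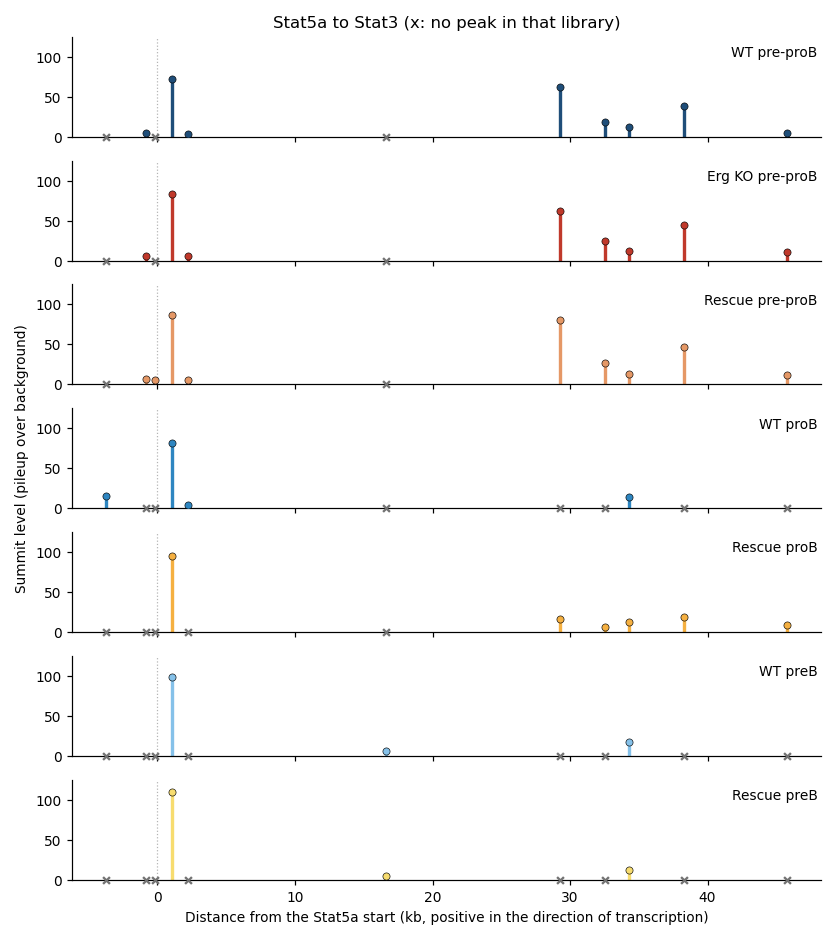
Summit level against the distance from the Stat5a start in kb, 1 panel per library, for elements nearest to Stat5a; crosses mark elements without a peak. The elements at +29.3, +32.5, +38.3 and +45.8 kb are present in the 3 pre-proB panels and, lower or within their range, in Rescue proB, and are crosses in WT proB and both preB panels.

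At Stat5b the stages differed mostly at distal elements. One lay beyond the 3′ end, 74.6 kb from the start (chr11:100775594-100776715), at 3.37 in WT pre-proB, 33.1 and 22.4 in WT and Rescue proB, and 31.2 and 25.5 in WT and Rescue preB, with no peak in Erg KO or Rescue pre-proB. Its 10.4-fold difference between WT proB and WT pre-proB (6.02 to 19.5) was the largest upwards of any shared member element, from a WT pre-proB level close to the lowest that was called. An intronic element at 46.0 kb stood at 22.1 in WT pre-proB and 3.62 in WT proB (5.75-fold lower, 3.36 to 10.5), and its neighbour at 45.1 kb had a peak in the pre-proB libraries only (9.2 to 12.3). Elements 7.3 kb inside Stat5b and 3.7 kb upstream of Stat5a belonged to proB cells: the first stood at 22.4 in WT and 4.87 in Rescue proB, the second at 14.9 in WT proB alone, and no other library had either.

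Among the inhibitors, which bind the receptor or its kinases and are induced by STAT5, promoter levels of Socs2 and Cish were higher in every later library than in any pre-proB library, and those of Socs1 and Socs3 were not. The Socs2 promoter element (chr10:95414156-95419651, a broad element merged from several peaks) was at 16.1 in WT and 20 in both Erg KO and Rescue pre-proB, 38.9 and 42.4 in WT and Rescue proB, and 38.7 and 40.8 in WT and Rescue preB. WT proB was 2.57-fold above WT pre-proB (1.93 to 3.46). The Cish promoter (chr9:107295879-107297489) followed, at 28.6, 28.3 and 30.9 in WT, Erg KO and Rescue pre-proB, 51.6 and 58.5 in proB, and 56.1 and 58 in preB, 1.92-fold higher in WT proB (1.53 to 2.41). Erg KO differed from WT pre-proB by 1.2-fold at Socs2 (0.868 to 1.68) and 1.04-fold in the other direction at Cish (0.804 to 1.35), both intervals spanning equality. Socs1, whose protein blocks JAK kinases directly, had promoter levels (chr16:10784104-10787719) of 67.8 to 85.1 in pre-proB, 71.1 and 74 in proB and 93.8 and 95.7 in preB. Socs3 had 14.3 to 23.7 (chr11:117968110-117970344), lowest in WT proB.

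The Cish and Socs2 promoters carried the pairs of STAT matches printed above. The 300 bp around the Cish summit held 4 matches and those around the Socs2 summit 2. Of the 137 member elements 23 (16.8%) held at least 1 match in the 300 bp around the summit, against 8.96% of all 145247 elements. The other patterns searched on both strands were the ETS pattern CCGGAAGT, in 0 of 137 against 1.19% of all elements, the PU.1 pattern GAGGAAGT (10 elements, 7.3% against 8.52%), the RUNX pattern TGTGGTT (18 elements, 13.1% against 13.5%) and the EBF1 pattern CCCNNGGG (23 elements, 16.8% against 12.2%). None of the 9 member elements with a peak in all 4 later libraries and in no pre-proB library held the EBF1 letters, which 24.4% of all elements of that kind did. Of the 6 with a peak in the 3 pre-proB libraries and in no later one, 2 held them (33.3%, against 4.92% of all). In 200 bp around the summit 0 of these 6 did, against 3.19%. These matches describe letters in a window and say nothing of binding.

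The highest level of any distal member element was that of one 27.9 kb downstream of the Socs2 start (chr10:95388739-95390048), inside the annotated gene but beyond the 3′ end of its coding transcripts. It stood at 142 in WT proB, 119 in Rescue proB, 99.4 in WT preB and 109 in Rescue preB. In pre-proB cells it was at 16.1 in WT and 4.26 in Erg KO, and Rescue had no peak. WT proB exceeded WT pre-proB 9.37-fold (7.28 to 12.2). Intronic elements 18.5 and 20.6 kb from the start were also higher later, at 19.2 to 33.8 and 12.2 to 24 against 4.79 to 6.73 and 4.49 to 6.73 in pre-proB. Downstream of the gene the order was reversed at 45.2 kb, where an element stood at 33.2 to 40 in pre-proB, 5.89 in WT proB, 16.6 in Rescue proB, and 18.8 and 28.1 in WT and Rescue preB. The element at 49.2 kb did not share this order. It had 19.3 to 20.9 in pre-proB, 17 and 22.4 in WT and Rescue proB, and 30.3 and 30.2 in WT and Rescue preB.

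Socs1 was flanked by elements that were much weaker after the pre-proB stage. One 3.5 kb upstream, between genes (chr16:10788300-10789535), stood at 37.8 in WT pre-proB and 4.3 in WT proB (8.26-fold lower, 5.12 to 14.1), and one 3.5 kb downstream of the start (chr16:10781674-10783753) at 29.1 and 3.4 (8.07-fold lower, 4.7 to 14.9). Erg KO and Rescue pre-proB had 39.9 and 43.1 at the first and 35.2 and 35.3 at the second, and Rescue proB and both preB libraries had 4.77 to 9.1 at either. Further downstream, at 10.7 kb, an element had 5.05 to 6.95 in pre-proB and 14 to 26.8 later. Another at 13.2 kb was at 38.7 in WT proB against 13.5 to 22 in all other libraries, with Rescue proB 2.91-fold below WT proB (2.11 to 4.08).

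Socs3 held elements of both kinds. Those 11.7 kb downstream and 20 kb upstream of its start had a peak in the 3 pre-proB libraries only (5.38 to 6.97 and 9.14 to 11.2), and one 2.0 kb upstream was missing in WT proB alone, with 18.8 to 20.9 in pre-proB, 7.45 in Rescue proB and 14.9 and 16.1 in preB. An element 4.2 kb downstream of the start (chr11:117965492-117966065) had 5.77 in WT pre-proB, no peak in Erg KO or Rescue pre-proB, 22.2 in WT and 10.6 in Rescue proB, and 14 in WT and 6.24 in Rescue preB. At Cish the promoter contrasted with some of the elements around it and not with others. From WT pre-proB to proB and preB, the element 1.6 kb upstream had 6.49, 13.4 and 12.1. The one 5.0 kb upstream, at the Mapkapk3 start, had 7.94, 11.5 and 18.8. The element 26.3 kb downstream of the start (chr9:107322020-107322829) was at 68.3, 71.6 and 64.6 in WT, Erg KO and Rescue pre-proB and at 10.6 in Rescue proB, with no peak in WT proB or preB. The one at 17 kb had 42.6, 16.3 and 4.49 in the WT libraries from pre-proB to preB, and the one 15.9 kb upstream, in an intron of Mapkapk3, had 60.6, 14.7 and 8.98. In Rescue the same elements had 52, 19.2 and 9.1, and 68.5, 22.6 and 14.

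**Figure D4:**
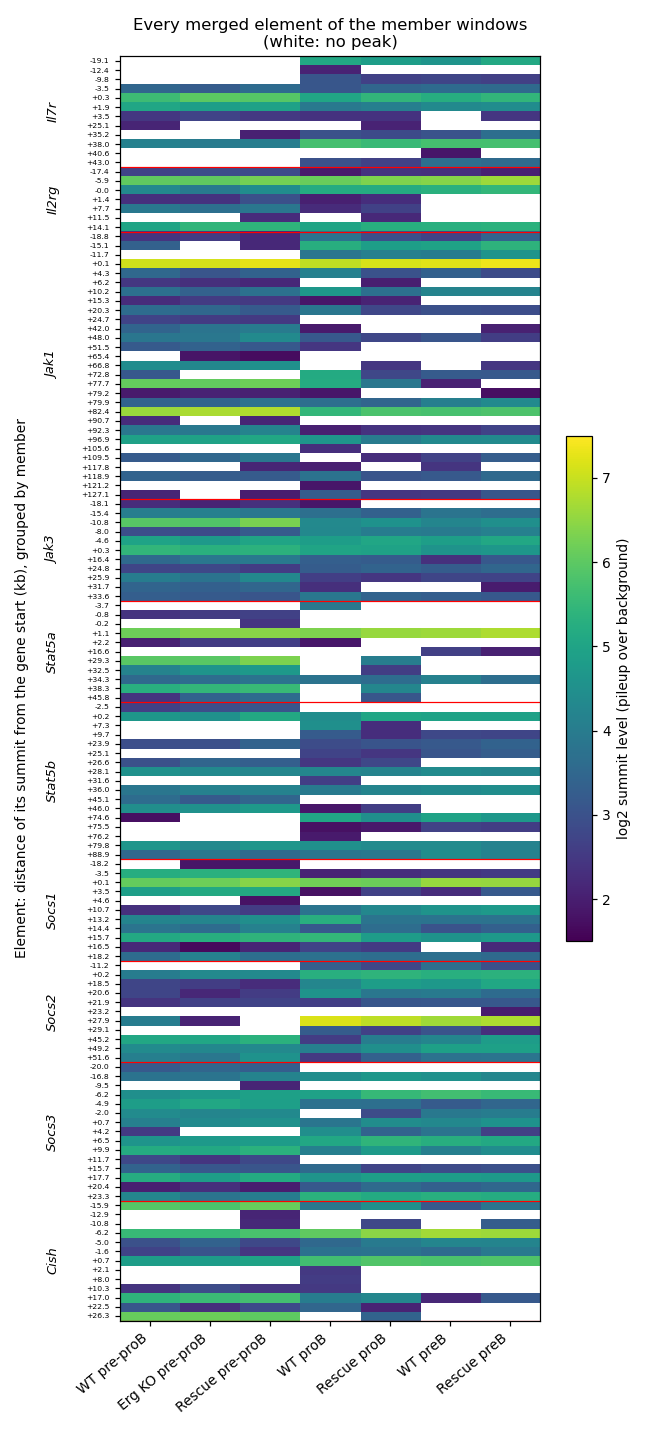
All 137 merged elements as rows, grouped by nearest member and ordered by the distance of the summit from its start in kb, and the 7 libraries as columns; colour is log2 summit level and white means no peak. The 3 pre-proB columns resemble each other row by row, and 67 elements have a peak in every library.

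Counted over all members, the WT stages set the size of a developmental difference. Of 126 member elements with a peak in WT pre-proB or WT proB, 20 were in WT proB only, against 23.5% of all elements, and 17 in WT pre-proB only, against 26.3%. The members' 15.9% and 13.5% lay below both backgrounds. Member elements were also taller and wider than elements in general. Over the libraries their median levels were 12.6 to 15.4, against 9.51 to 11.5 for all elements, and median widths were 653 and 515 bp. The shares given here and below were not matched for height or width. Of the 89 in both, 18 (20.2%) were at least 2-fold higher in WT proB and 17 (19.1%) at least 2-fold lower, where 15.3% of all shared elements were in each direction, and the median centred log2 change was 0.07. Elements within 1000 bp of a member start numbered 15, of which 1 gained a peak or passed 2-fold upwards and 2 went down, and 11 more lay at starts of other coding genes, 0 of which went up and 2 down. Of these 26, 25 had a peak in WT pre-proB or WT proB, so 4% went up and 16% down, where 18.3% and 9.24% of all elements near the start of a coding gene did. The other 111 were distal, and of the 101 with a peak in either library 37 went up (36.6%, against 33.3% of all distal elements) and 30 down (29.7%, against 38%). From WT proB to WT preB, 24 of 113 elements were in proB only (24.4% of all elements) and 4 in preB only (8.01%), while of 85 shared elements 6 were at least 2-fold lower and 2 at least 2-fold higher in preB (9.71% and 4.74%). Those higher were the Socs2 elements at 45.2 kb (2.95-fold, 1.85 to 4.84) and 51.6 kb (2.2-fold, 1.33 to 3.72). A peak in all 7 libraries was found for 48.9% of member elements and 32% of all elements. The pattern of 3 pre-proB libraries and no later one was found for 6 member elements (4.38% against 11.5% of all), the pattern of 4 later libraries and no pre-proB one for 9 (6.57% against 5.19%), and a peak in 1 library only for 14 (10.2% against 17.8%).

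Loss of Erg was compared at the pre-proB stage, where Erg KO and WT differ by Rag1Cre and the Erg deletion by design. Of 108 member elements, 99 had a peak in both. Only the Socs2 element at 27.9 kb passed 2-fold among them, being 3.89-fold lower in Erg KO (2.31 to 6.85), and none was 2-fold higher, where 0.383% and 0.236% of all shared elements were. The median centred log2 difference was -0.01. Elements with a peak in WT alone numbered 7 (6.48% against 5.58% of all) and in Erg KO alone 2 (1.85% against 12.5%). The highest of the WT-only elements were 15.1 kb upstream of Jak1 at 10.3, 72.8 kb inside Jak1 at 8.9 and 4.2 kb from the Socs3 start at 5.77. Both Erg KO-only elements, 18.2 kb upstream of Socs1 and 65.4 kb inside Jak1, were at 3.59 and near the lowest level called, and Rescue pre-proB had both. In lists cut to the same length of 76465 peaks, 16 elements differed in place of 9 and 0 in place of 1 passed 2-fold. The largest difference upwards among shared elements was 45.8 kb from Stat5a, in Stat3, at 10.5 against 5.29 (1.94-fold, 1.14 to 3.38).

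Rescue pre-proB, the other library without Erg at that stage, shares its WT control with Erg KO and so its values are given beside it and not as a repeat. Of 116 member elements, 10 were in Rescue only (14.7% of all elements) and 5 in WT only (4.6%), and of 101 in both, 1 was at least 2-fold higher (0.263% of all) and 1 at least 2-fold lower (0.527%). The former was the same element in Stat3, at 12.2 against 5.29 (2.1-fold, 1.26 to 3.61). The latter was 15.1 kb upstream of Jak1, at 4.57 against 10.3 (2.48-fold lower, 1.44 to 4.4). The Rescue-only elements had levels of at most 5.44.

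Elements called in WT pre-proB and either absent or at least 2-fold lower in both Erg-deficient pre-proB libraries numbered 6 of 137 (4.38%, against 2.55% of all elements). They belonged to Socs2 (27.9 kb from the start), Jak1 (15.1 kb upstream and 72.8 kb inside), Socs3 (4.2 kb), Stat5b (74.6 kb) and Il7r (25.1 kb). The first 5 had a peak in all 4 proB and preB libraries, and their WT proB levels were 142, 38.5, 35.8, 22.2 and 33.1, against WT pre-proB levels of 16.1, 10.3, 8.9, 5.77 and 3.37. Each was thus weaker in WT pre-proB than in WT proB. Rescue proB had 119, 28.9, 6.88, 10.6 and 22.4 at the same elements, so that only the Jak1 element at 72.8 kb was lower there than in WT pre-proB. The promoters of 4 of 5 committed B-cell markers moved with them: Pax5, Vpreb1 and Pou2af1 had peaks of 4.33, 10.3 and 8.9 in WT pre-proB and in neither Erg-deficient pre-proB library, and Cd79a had 13.9 in WT, 4.13 in Rescue and none in Erg KO. Cd79b kept its peak, with levels of 10.1 in WT, 9.36 in Rescue and 7.85 in Erg KO. More cells of a B-committed kind and more accessibility per cell cannot be told apart in bulk libraries, and the part of cell composition in these differences was not tested. The reverse, a peak in both Erg-deficient libraries and none or a 2-fold lower one in WT, was found for 2 member elements (1.46%, against 5.69% of all), both named above. Without the fold criterion, 3 member elements (2.19%, against 1.65% of all) had a peak in WT pre-proB and WT proB and in neither Erg-deficient pre-proB library, and the same 2 (1.46%, against 5.65% of all) had one in both Erg-deficient libraries and none in WT pre-proB.

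**Figure D5:**
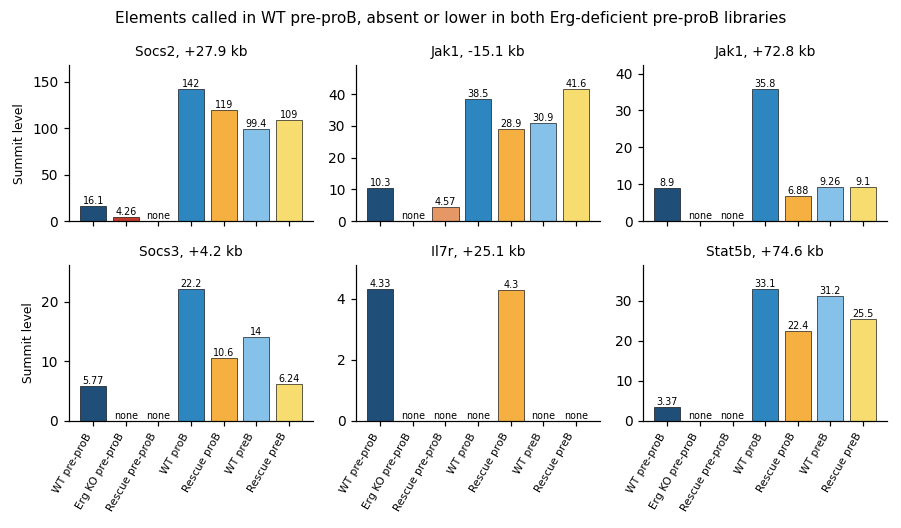
Summit level in the 7 libraries, as bars from 0 with the value on top, for the 6 member elements called in WT pre-proB and absent or at least 2-fold lower in Erg KO and Rescue pre-proB. Except for the Il7r element, the proB and preB bars are present in both genotypes, and for Socs2 they reach 99.4 to 142 against 16.1 in WT pre-proB.

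With the stages of the Rescue libraries taken from their source names, more elements differed from WT at each stage, among all elements as well as among members. At pre-proB 38 of 119 member elements had a peak in 1 library only (31.9%, against 48.2% of all) and 25 of the 81 shared passed 2-fold (30.9%, against 30.1%), where the titles gave 15 and 2. At proB they were 46 of 133 (34.6%, against 53.3%) and 30 of 87 (34.5%, against 29.9%), where the titles gave 28 and 11. At preB they were 22 of 108 (20.4%, against 33.3%) and 3 of 86 (3.49%, against 10.5%), where the titles gave 11 and 1. The source names call pre-proB the library titled preB, which had all 5 committed B-cell marker promoters with a peak (summed level 378). They call proB the library titled pre-proB, which had 2 (13.5), and preB the library titled proB, which had 5 (289).

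At later stages Rescue was compared with WT of the same title. At proB, 16 of 121 member elements were in WT only and 12 in Rescue only, 13.2% and 9.92% against 17.5% and 16% of all elements. Of 93 shared elements 10 (10.8%, against 7.07% of all) were at least 2-fold lower in Rescue and 1 (1.08%, against 5.51%) at least 2-fold higher, the Socs2 element at 45.2 kb (2.68-fold, 1.66 to 4.43). Of the 93 shared elements, 17 were in the Jak1 window, the most of any member. Jak1 held 5 of the 10 that were lower: the elements at 72.8 kb (5.49-fold lower, 3.56 to 8.82), 77.7 kb, 4.3 kb (2.26-fold, 1.45 to 3.62), 20.3 kb (2.22-fold, 1.37 to 3.72) and 10.2 kb (2.05-fold, 1.44 to 2.95). The Jak1 promoter, at 122 in WT and 141 in Rescue proB, did not follow. The others were 7.3 and 9.7 kb inside Stat5b, 13.2 kb from Socs1, 4.2 kb from Socs3 and 22.5 kb from Cish.

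Elements with a peak in the 3 pre-proB libraries and in Rescue proB, and in neither WT proB nor WT preB, numbered 7 (5.11%, against 5.87% of all): the 4 in Stat3, the Cish element at 26.3 kb and intronic Jak1 elements at 66.8 and 6.2 kb. Of the 17 member elements that WT proB lacked and WT pre-proB had, Rescue proB had a peak at 10 (58.8%, against 33.8% of all such elements) and WT preB at 2 (11.8%, against 7.85%). Their levels summed to 306, 313 and 345 in the WT, Erg KO and Rescue libraries of the pre-proB stage and to 87.1 in Rescue proB. The markers of other cells are given beside them. Summed promoter levels in Rescue against WT proB were 12.9 against 12.5 for the T-cell list, 146 against 120 for the NK and innate lymphoid list, 247 against 205 for the plasmacytoid dendritic list and 95.7 against 48.7 for the myeloid list. For the early progenitor list they were 361 against 307. There Flt3, Meis1, Hoxa9 and Mecom (72.5 against 40.1) were higher in Rescue, and Cd34 and Kit (32.1 against 57.1) lower. The promoters of Cd8a, Cd3g and Ly6c2 had peaks of 8.6, 4.3 and 10.9 in Rescue proB and none in WT proB, against 23.6, 12.7 and 24.8 in WT pre-proB, and Siglech stood at 61.6 in Rescue and 22.6 in WT proB. Those of Cd4 and Bcl11b had peaks of 3.62 and 8.83 in WT proB and none in Rescue proB. Within the NK list Gata3 (123 against 98) and Eomes (14.9 against 9.74) were higher in Rescue than in WT proB and Klrb1c (3.73 against 6.57) and Nkg7 (4.3 against 5.66) lower, and in the dendritic list Tcf4 was lower (80.5 against 97.8). At preB the Rescue sums against WT were 157 against 129 for the NK list and 355 against 319 for the dendritic list. They were 84.2 against 46 for the myeloid list, 416 against 285 for the early progenitor list and 0 in both for the T-cell list. Whether cells of other kinds in the Rescue proB and preB gates contributed was not tested.

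At preB, of 97 elements 3 were in WT only and 8 in Rescue only (6.6% and 16.2% of all), and of 86 shared elements 1 was at least 2-fold lower in Rescue and 0 higher (1.42% and 2.41% of all). That element was the one 4.2 kb from Socs3, at 6.24 against 14 (2.38-fold, 1.44 to 4.05). No member element had a peak in all 3 WT libraries and in none of the 4 Erg-deficient ones, or the reverse, where 0.139% and 0.12% of all elements did.

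Promoters of 39 other pathway genes were counted in the same way. Of the ligands Il7 had a promoter peak in all libraries (20.5 to 23.1 in pre-proB, 32.6 to 48.6 later) and Tslp in none. All 7 other receptor chains had one in pre-proB cells and 6 later, since Il2rb, a chain of the IL-2 and IL-15 receptors, had levels of 6.25 to 8.49 in pre-proB and no later peak. Both other JAK kinases, 5 STAT factors, 4 SOCS genes, 8 other brakes, 4 genes of the PI3 kinase arm and 7 known STAT5 targets all had a promoter peak in every library. Among the 37 genes with one in both WT pre-proB and WT proB, 3 were at least 2-fold higher in proB and 1 lower. Of all 13478 promoters 6.82% and 3.84% were. The median centred log2 change of the 37 was -0.02. Those higher were Il2ra (4.09-fold, 11.3 to 45.7), Il21r (2.27-fold, 40.2 to 90.1) and Il7 (2.19-fold, 20.7 to 44.8), and the lower one was Il9r (2.61-fold, 18.5 to 7.02). Between Erg KO and WT pre-proB none of 38 passed 2-fold, where 0.196% and 0.138% of 13766 promoters did upwards and downwards. The furthest was Pim1, a kinase gene induced by STAT5, at 70.7 against 46.7 (1.52-fold).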

How the data were processed

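ATAC-seq libraries of sorted mouse bone marrow progenitors, 1 per group, were used as the peak lists that the authors deposited. Per the labels and the study's methods, reads were aligned to mm10 with Bowtie2 and peaks called with MACS2 on each library. The submitters' processing notes also name CASAVA 1.8.2 and Picard, while no source used here states options, other versions, duplicate handling or any Tn5 shift. For each peak the authors deposited coordinates, a score, a fold (ratio) of summit over background pileup with a pseudocount of 1, −log10 p-value and q-value, and the summit position. The score and −log10 p-value were not used as levels.

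Summit and background pileups were recovered from the deposited folds, which were whole multiples of 1 step per library within a tolerance of 0.02. Peaks of all lists that overlapped by at least 1 bp were merged, and members were elements in GENCODE M21 gene bodies plus 20 kb. Level ratios were centred on the median over shared elements and called past 2-fold. Conditional binomial 95% intervals cover counting error only, since reads without molecular identifiers are not independent molecules. With 1 library per group no test was possible.

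The members and lists were chosen with earlier results of these data known. Elements were named by rule: each member's highest promoter element, the 3 highest elements on either side and the 3 largest differences in each direction of each of 6 pairs, and stage-specific patterns. Other named elements were chosen after their values were seen. A marker of committed B cells that was on the list is not reported here. Alternatives were list length, window, overlap, centring, promoter window, motif window and the stage labels of Rescue. Python 3.11.15, pandas 2.3.3, numpy 2.4.6, scipy 1.17.1 and pysam 0.24.0 were used, and the ratio calculation was tested on simulated data.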

Additional observations from a re-analysis of the deposited data

Results flagged for a closer look

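Some member elements were gained from one stage to the next in one genotype and lost in the other. From pre-proB to proB, the element 25.1 kb downstream of the Il7r start had a peak in WT pre-proB (4.33) and not in WT proB, and in Rescue proB (4.3) and not in Rescue pre-proB. The element 117.8 kb from the Jak1 start went the other way, with 4.08 in WT proB and 4.35 in Rescue pre-proB. They were 2 of 137 member elements, where 1.14% of all elements behaved so. From proB to preB, WT lost and Rescue gained the Jak1 elements at 79.2 kb (3.62 in WT proB, 3.38 in Rescue preB) and 42.0 kb (3.85 and 4.16) and the Jak3 element at 31.7 kb (4.98 and 3.9), 3 of 137 against 1.35% of all. All of these levels lay between 3.38 and 4.98, not far above the lowest called levels of 2.61 to 3.09. Both counts were near the share of all elements. With 1 library per group the difference was not tested.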

How the results depend on the processing

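Of 126 values of 31 counts recomputed under another setting, 79 stayed within 1.5 times the reported count and 47 did not. All 10 member promoters had a peak in every library under every list length and promoter window tried. Counts are given as elements that differ, with a peak in 1 library of a pair, and as shared elements past 2-fold. In lists of 76465 peaks, 16 elements differed between Erg KO and WT pre-proB, and 0 passed 2-fold there and in Rescue against WT pre-proB. In lists of 38232 peaks, 10 passed 2-fold between WT proB and pre-proB, 2 between WT preB and proB and 0 between Erg KO and WT. Rescue against WT then gave 9 differing and 0 past 2-fold at pre-proB, 16 and 3 at proB, and 7 and 0 at preB. The windows held 50, 46 and 49 peaks in WT, Erg KO and Rescue pre-proB, 60 and 55 in WT and Rescue proB, and 55 and 52 in WT and Rescue preB. With 10 kb windows, 5 passed 2-fold between WT preB and proB and 0 between Rescue and WT pre-proB, and 7 differed between Rescue and WT preB. Within gene bodies only, 13 differed and 12 passed 2-fold between WT proB and pre-proB, 15 and 2 between WT preB and proB, and 3 differed between Erg KO and WT. Rescue against WT there gave 3 and 0 at pre-proB, 10 and 7 at proB, and 6 and 0 at preB. Gene bodies held 50, 46 and 47 peaks in WT, Erg KO and Rescue pre-proB, 45 and 46 in WT and Rescue proB, and 41 and 43 in WT and Rescue preB. Shorter lists and narrower windows hold fewer peaks by construction. With the stages of Rescue from the source names, Rescue against WT gave 38 and 25 at pre-proB, 46 and 30 at proB, and 22 and 3 at preB. Without centring, 2 passed 2-fold between Rescue and WT preB. No paired analysis was possible because each group is 1 library and no result comes from a test.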
